A study of Mus musculus with 198 samples.

Results

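The glucocorticoid target genes, Fkbp5, Tsc22d3, Sgk1, Zbtb16, Klf9, Mt1, Mt2, Pdk4 and Cdkn1a, were followed through 9 tissues of the same mice. They were taken by name from the 56332 genes of the count table, and all 9 were found. The RNA came from C57BL/6 mice treated for 17 weeks with an antibody to PAPP-A (aPAPPA, 10 mice, 5 males and 5 females) or with a control (12 mice, 6 males and 6 females). No age or genotype is given in the labels, and the control treatment is not described further. Bone marrow, spleen, gonadal fat, subscapular fat, heart, kidney, liver, lung and skin of each of the 22 mice were sequenced as whole tissue, 1 library per tissue and mouse. PAPP-A is a secreted protease that cleaves binding proteins of insulin-like growth factors. The comparisons made were aPAPPA against control mice, males against females, each tissue against the others, and the agreement between the 9 tissues of 1 mouse.

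Glucocorticoids are adrenal steroid hormones that follow a daily rhythm and rise with stress and fasting. They bind the glucocorticoid receptor (Nr3c1), which enters the nucleus and binds palindromic response elements near its target genes. Most tissues carry the receptor, so that target genes can move together across the body with the hormone in the blood, while each also answers to signals of its own tissue. Fkbp5 encodes a co-chaperone that holds the receptor in a state of low affinity and so closes a feedback loop. Tsc22d3 encodes the anti-inflammatory leucine zipper protein GILZ, and Sgk1 a kinase that promotes sodium transport. Zbtb16 and Klf9 encode zinc finger transcription factors. Mt1 and Mt2 encode metallothioneins, which bind zinc and copper and are also induced by metals through the factor MTF1. Pdk4 encodes a kinase that switches off pyruvate dehydrogenase in fasting, under fatty acid receptors as well as glucocorticoids. Cdkn1a encodes the cell cycle inhibitor p21, which is also a target of p53.

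A library held between 4138419 and 19517950 counts (median 8950258). Most of them fell on 9 abundant features, of which Lars2 (25.5% of counts on average) and Gm42418 (23%) were the largest. The counts left for all other genes ran from 33377 to 4694597 with a median of 1099966.5. Levels are given as CPM, which puts every library on the same total of counts outside those features, with TMM factors, so they compare 1 gene between libraries and not different genes. A library was held in doubt where the mean log2 CPM of its own tissue's markers fell over 2 under that tissue's median, or where under 1000 genes had 10 or more counts. There were 5 such libraries, the hearts of aPAPPA male 56 and control female 22, the gonadal fat of aPAPPA male 58, the lung of control male 68 and the skin of aPAPPA female 36. No other library met either criterion. For the arm, the sex and the mouse, a gene was tested in a tissue where it passed a filter on low counts. Fkbp5, Tsc22d3, Sgk1 and Klf9 passed in 9 tissues, Zbtb16 in 8, Mt1 and Pdk4 in 7, Cdkn1a in 5 and Mt2 in 4, which gave 67 of 81 possible gene and tissue pairs. The comparisons between tissues took in all 9 genes in every tissue, also where a gene failed the filter, as Zbtb16 did in spleen. Whether a difference in whole tissue came from fewer cells of a type or from less RNA per cell cannot be told apart.

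Promoter sequences are shown for Tsc22d3 and Fkbp5, the genes called for agreement over all 9 tissues of a mouse, for the neighbouring metallothionein genes, and for Sgk1, which has the complete response element. They are RefSeq windows of 250 bases that end just before a transcript start (build GRCm38.p6, the assembly of mm10), read 5′ to 3′ on the gene's strand. Windows were found for 8 of the 9 genes, all but Zbtb16, 16 in all, since Sgk1, Tsc22d3 and Cdkn1a have several starts. The following letters were searched on both strands. These were the full glucocorticoid response element (AGAACA and TGTTCT with 3 bases of any kind between them), its half-site AGAACA, the metal response element core as TGCACNC or TGCGCNC, and the E-box CACGTG of clock factors. A half-site inside a full element was counted under both. Glucocorticoid and metal elements are in capitals.
Sgk1 chr10:21993640-21993889 (plus strand): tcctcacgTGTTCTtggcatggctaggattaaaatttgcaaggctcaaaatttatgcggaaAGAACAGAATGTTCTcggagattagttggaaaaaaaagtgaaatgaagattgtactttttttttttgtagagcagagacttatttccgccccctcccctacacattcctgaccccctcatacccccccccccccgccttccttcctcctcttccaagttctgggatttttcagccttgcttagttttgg
Tsc22d3 chrX:140600523-140600772 (minus strand): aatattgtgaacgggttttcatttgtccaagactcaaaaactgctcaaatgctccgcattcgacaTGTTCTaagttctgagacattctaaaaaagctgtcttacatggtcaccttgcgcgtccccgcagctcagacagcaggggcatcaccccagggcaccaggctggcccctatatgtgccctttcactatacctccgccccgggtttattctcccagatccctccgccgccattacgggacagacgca
Fkbp5 chr17:28486150-28486399 (minus strand): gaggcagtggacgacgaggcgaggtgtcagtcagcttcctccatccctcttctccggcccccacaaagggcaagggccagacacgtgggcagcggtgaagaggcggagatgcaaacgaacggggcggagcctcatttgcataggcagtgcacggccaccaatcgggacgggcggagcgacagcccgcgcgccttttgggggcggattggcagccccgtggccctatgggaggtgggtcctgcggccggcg
Mt2 chr8:94172368-94172617 (plus strand): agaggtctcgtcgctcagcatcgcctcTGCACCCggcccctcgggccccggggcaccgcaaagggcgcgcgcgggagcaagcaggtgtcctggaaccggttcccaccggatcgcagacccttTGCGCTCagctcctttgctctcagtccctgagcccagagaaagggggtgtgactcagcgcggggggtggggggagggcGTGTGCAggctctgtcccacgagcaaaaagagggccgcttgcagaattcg
Mt1 chr8:94178839-94179088 (plus strand): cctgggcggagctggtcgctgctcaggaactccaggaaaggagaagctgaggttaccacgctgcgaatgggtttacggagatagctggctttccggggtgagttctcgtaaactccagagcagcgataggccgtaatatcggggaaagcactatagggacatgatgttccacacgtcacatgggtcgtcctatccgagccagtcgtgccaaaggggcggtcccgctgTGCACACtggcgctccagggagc
The full element was found in 1 window of the 9 genes, at an inner start of Sgk1, where it begins 189 bases before the start and the letters read AGAACAGAATGTTCT. Of all 32851 RefSeq windows of this length, 3 hold it, which is 0.00913%. Half-sites were found in 4 windows of the genes, of Sgk1 and Tsc22d3, and 16.1% of all windows hold at least 1. The Tsc22d3 window shown has 1, written as TGTTCT on the gene's strand, 185 bases before the start. The windows at the other Tsc22d3 starts, not shown, have none. The Fkbp5 window has no half-site and 1 E-box, 169 bases before its start, the Sgk1 window shown also has 1, 246 bases before its start, and 6.02% of all windows hold an E-box. The Mt2 window has 3 metal element cores, a number reached by 1.26% of windows, and the Mt1 window has 1, which 21.4% of windows have. These matches describe letters in a short window, and elements farther from a start or after it were not searched. The counts of elements are those of the windows and not of the whole promoters.

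The genes fall on 7 chromosomes in the GENCODE vM21 annotation of mm10. Fkbp5 lies at chr17:28399094-28517527 on the minus strand and Cdkn1a at chr17:29090976-29100727 on the plus strand. Mt2 (chr8:94172664-94173568) and Mt1 (chr8:94179082-94180327) are plus-strand neighbours. Tsc22d3 is on the minus strand of the X chromosome at chrX:140539528-140600659. Sgk1 is at chr10:21882184-21999903 (plus), Zbtb16 at chr9:48654297-48836222 (minus), Klf9 at chr19:23141226-23168134 (plus) and Pdk4 at chr6:5483351-5496309 (minus).

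The 9 genes had very different tissue profiles. In control mice, mean levels spanned 3.08-fold between the highest and lowest tissue for Sgk1, 3.63-fold for Fkbp5 and 4-fold for Tsc22d3. The span was 15.9-fold for Klf9, 17.0-fold for Zbtb16, 21.9-fold for Mt1 and 24.3-fold for Cdkn1a. It was 85.0-fold for Mt2 and 273.8-fold for Pdk4, whose lowest tissue was bone marrow, where Mt2 had 0 counts in 5 and Pdk4 in 7 of 12 control libraries. The Pdk4 span was 858-fold without the marrow library of mouse 55, at 17.5 CPM. The order of tissues depends on the scale set between them. Without TMM factors every gene shifted by -0.58 in liver, -0.45 in heart and up to 0.38 in spleen on the log2 scale, and the highest tissue was another for Fkbp5, Zbtb16 and Mt1 and the lowest another for Fkbp5 and Cdkn1a. The spans then changed too, to 5.35-fold for Sgk1, 3.59-fold for Fkbp5, 5-fold for Tsc22d3 and 202.8-fold for Pdk4. Each tissue was set against the mean of the other 8 in the 12 control mice with edgeR's quasi-likelihood test, and 61 of 81 contrasts (75.3%) passed an adjusted p of 0.05, 34 higher and 27 lower. That fit had sex as covariate and no mouse block, so it treated the libraries of 1 mouse as independent. Over all genes, 62.4% of gene and tissue contrasts passed, 31.8% higher and 30.6% lower, and the difference between the shares was not tested. Per kilobase of exon, each gene's highest mean level in control mice was 161 CPM for Pdk4 in subscapular fat, 114 for Mt2 in skin and 61.4 for Mt1 in heart. It was 32.7 for Klf9 in kidney, 31.8 for Tsc22d3 in lung, 26.4 for Cdkn1a in skin, 18.7 for Sgk1 in skin, 16.1 for Zbtb16 in subscapular fat and 5.71 for Fkbp5 in liver. The length is the union of exons of all annotated transcripts. It was 1246 bases for Mt1, its whole gene, and 9468 bases for Fkbp5, from 15 transcripts. Values of different genes depend on that length, so they give no firm order of the genes.

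**Figure D1:**
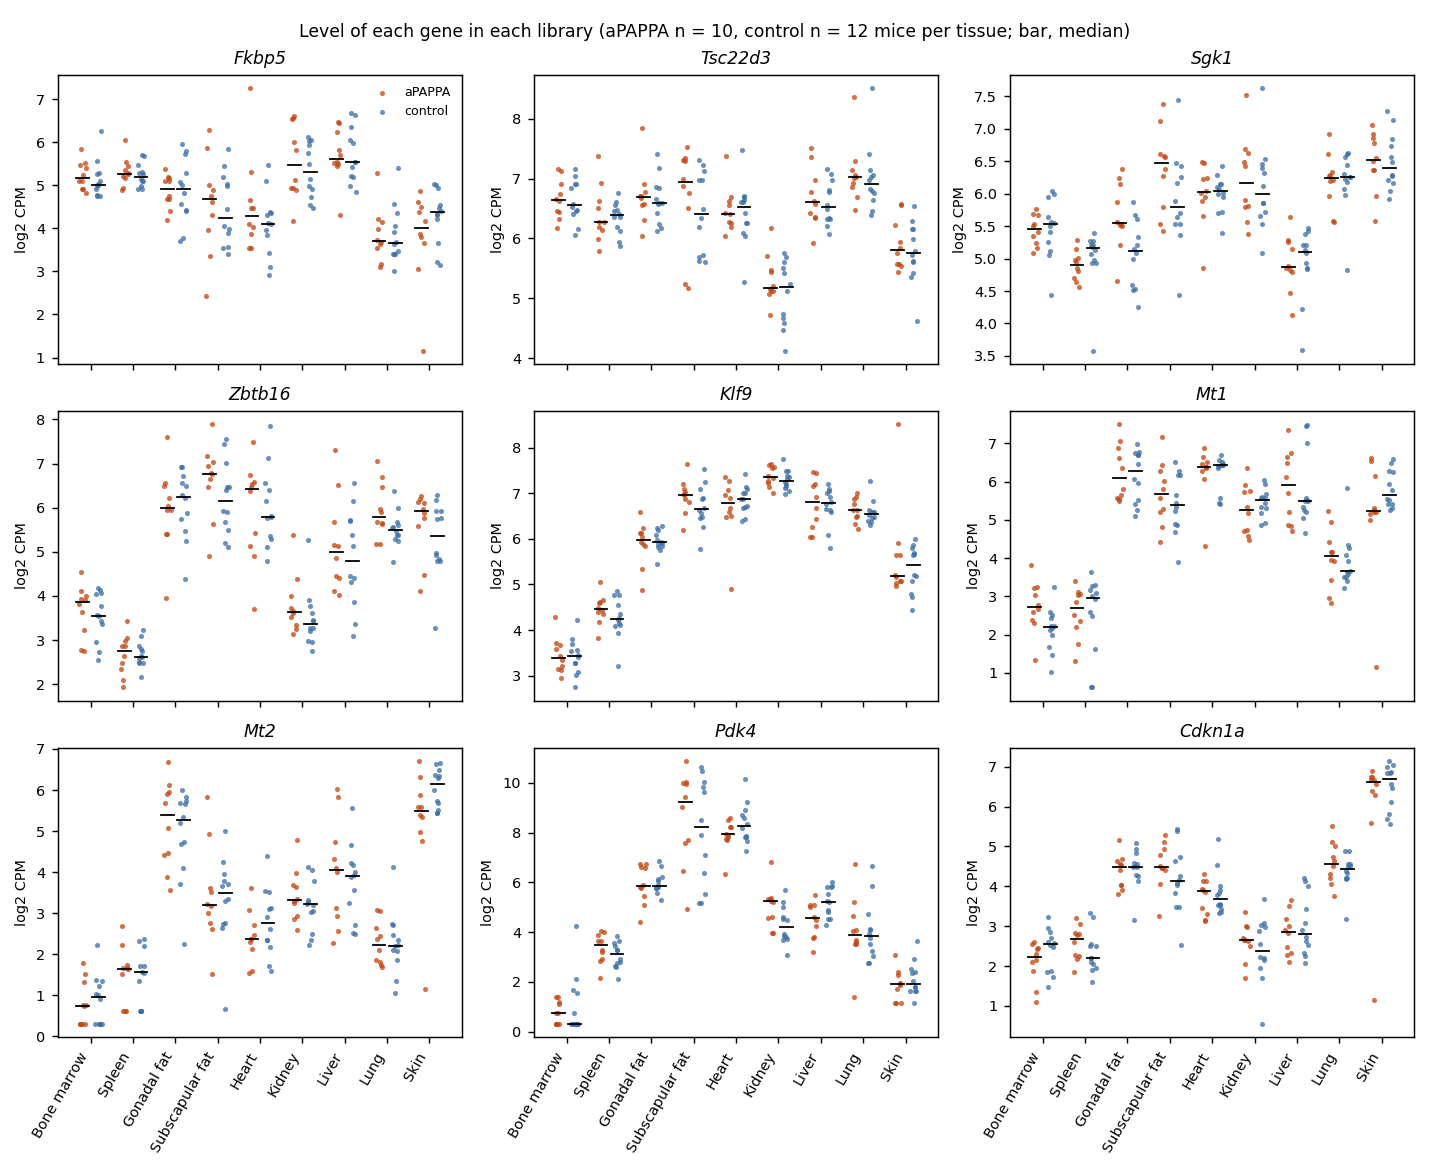
Level of each gene on the log2 CPM scale (prior count 2) in every library, by tissue, with aPAPPA mice to the left of control mice and a bar at the median. The profiles differ between genes, while the 2 arms overlap in each tissue, and single aPAPPA libraries stand apart, such as the heart of mouse 56 for Fkbp5 and the skin of mouse 36.

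With TMM factors Fkbp5 was highest in liver and kidney and lowest in lung, while without them it was highest in spleen and lowest in heart. In control mice its level had a lowest, median and highest value of 26.0, 43.8 and 99.9 CPM in liver and of 6.68, 11.3 and 41.1 CPM in lung. Against the other tissues its log2 fold change was 0.99 ± 0.19 (SE) in liver and -0.99 ± 0.21 in lung (edgeR, adjusted p = 1.93e-06 and 3.55e-05). Ordered by mean log2 CPM, none of the 8 neighbouring pairs of tissues differed for Fkbp5 in exact two-sided sign-flip tests over the 12 control mice, adjusted over 72 pairs of all genes. Tsc22d3 was highest in lung, at 83.1, 119 and 365 CPM, and lowest in kidney, at 16.0, 34.9 and 52.7 CPM. For it, 2 neighbouring pairs differed, spleen over skin (10 of 12 mice, adjusted p = 0.0352, exact) and skin over kidney (10 of 12 mice, adjusted p = 0.0398, exact). In aPAPPA mice, with the skin library of mouse 36, in doubt, among them, spleen over skin was not called (adjusted p = 0.0506, exact). Sgk1 was highest in skin (58.3, 81.8 and 152 CPM) and lowest in liver (9.23, 31.7 and 41.7 CPM), and none of its neighbouring pairs differed.

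The transcription factors had the steepest profiles of the genes present in nearly every tissue. Zbtb16 was highest in subscapular fat, at 32.7, 71 and 186 CPM, with gonadal fat and heart next, and lowest in spleen, at 2.91, 4.63 and 7.80 CPM. Its neighbouring pairs liver over marrow (adjusted p = 0.0211, exact) and kidney over spleen (12 of 12 mice, adjusted p = 0.00703, exact) differed. Without TMM factors both calls were lost (adjusted p = 0.223 and 0.103, exact), and gonadal fat was the highest tissue. Klf9 was highest in kidney at 125, 154 and 215 CPM and lowest in marrow at 5.46, 9.55 and 17.5 CPM. For Klf9 5 of 8 neighbouring pairs differed, among them kidney over heart (11 of 12 mice, adjusted p = 0.01, exact), the most of any of the genes.

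The metallothioneins shared their lowest tissues, marrow and spleen, but not their highest. Mt1 was high in heart (40.9, 84.4 and 102 CPM in control mice) and in gonadal fat, and Mt2 in skin (40.9, 68.7 and 98.6 CPM). The Mt1 difference of heart over gonadal fat was 0.09 on the log2 scale (adjusted p = 0.848, exact), and without TMM factors it was -0.55, lower in heart (adjusted p = 0.0323, exact). Mt2 in heart was at 1.45, 5.23 and 19.5 CPM, and it failed the filter on low counts there. Their log2 fold changes against the other tissues were 1.57 ± 0.18 for Mt1 and -0.17 ± 0.35 for Mt2 in heart (edgeR, adjusted p = 4.95e-13 and 0.718). Pdk4, the fasting-induced kinase, was highest in heart and subscapular fat, with control medians of 308 and 303 CPM. In subscapular fat single control mice ran from 34.0 to 1616 CPM, while heart ran from 150 to 1159 CPM, or to 601 CPM without the library of mouse 22, in doubt. Sums of 8 skeletal muscle markers in the subscapular libraries had medians of 3731 CPM in males and 18260 CPM in females and ran up to 128400 CPM, and their part in the Pdk4 range was not tested. Cdkn1a was highest in skin at 44.7, 102 and 140 CPM, above gonadal fat in 12 of 12 mice (adjusted p = 0.00703, exact), with a log2 fold change against the other tissues of 3.41 ± 0.15 (edgeR, adjusted p = 6.89e-41). In aPAPPA mice skin over gonadal fat was not called (1.59 on the log2 scale, adjusted p = 0.0804, exact). That comparison includes the skin library of mouse 36, in doubt, with 0 counts for Cdkn1a. Every other aPAPPA mouse was higher in skin than in gonadal fat.

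None of the 9 genes passed the test between aPAPPA and control mice in any tissue where it was tested. With edgeR's quasi-likelihood test and sex as covariate, 0 of 67 pairs had an adjusted p under 0.05, and the smallest was 0.712. At an unadjusted p under 0.05 there were 4 pairs, against 4.61% of all 102286 gene and tissue pairs. At the adjusted threshold, 0.000978% of all pairs passed, a single gene in bone marrow. DESeq2 and limma-voom called 0 of these pairs too. Of the 67 log2 fold changes 49 were positive and 18 negative, with a median of 0.06 beside -0.0028 over all genes, and the same mice lie behind every tissue.

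The 4 pairs with the smallest p-values were Sgk1 in gonadal fat, Pdk4 in liver, Mt2 in skin and Zbtb16 in lung. In gonadal fat, Sgk1 had a lowest, median and highest value of 23.7, 45.3 and 81.8 CPM in aPAPPA mice and of 17.7, 33.3 and 57.4 CPM in control mice. The value of 81.8 CPM is the library of mouse 58, in doubt, and the next aPAPPA mouse was at 74.4 CPM. The arms overlapped, and the log2 fold change was 0.58 ± 0.17 (SE, edgeR, adjusted p = 0.979). Pdk4 in liver was at 6.53, 20.7 and 42.5 CPM in aPAPPA mice and at 16.8, 34.6 and 61.4 CPM in control mice, a log2 fold change of -0.70 ± 0.23 (adjusted p = 1, edgeR). Mt2 in skin was at 0, 42.9 and 102.5 CPM in aPAPPA mice and 40.9, 68.7 and 98.6 CPM in control mice (-0.48 ± 0.20, adjusted p = 1, edgeR). The value of 0 is the skin library of mouse 36, in doubt, and without it the estimate was -0.46. Zbtb16 in lung was at 34.7, 54.4 and 132 CPM in aPAPPA mice and 26.0, 44.0 and 82.2 CPM in control mice (0.43 ± 0.20, adjusted p = 0.712, edgeR). The arms overlapped in each of these pairs.

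The highest positive estimate belonged to Fkbp5 in heart and rested on 1 library. Its level was 10.1, 18 and 152 CPM in aPAPPA mice and 5.93, 15.7 and 42.8 CPM in control mice, with a log2 fold change of 0.85 ± 0.43 (edgeR, adjusted p = 1). The value of 152 CPM, from 501 counts, is that of mouse 56, whose heart library is in doubt. There the cardiomyocyte markers summed to 2805 CPM against a heart median of 52920, T cell markers to 2311 against 19.8 and cell cycle markers to 1932 against 34.2. Without mouse 56 the estimate was 0.07, and without both heart libraries in doubt it was 0.03. For Fkbp5 in liver the log2 fold change was 0.01 ± 0.16 with medians of 46.5 CPM in aPAPPA and 43.8 CPM in control mice. Tsc22d3 had estimates from 0.01 ± 0.19 in heart to 0.30 ± 0.30 in subscapular fat, positive in each of 9 tissues of the same mice. With each mouse left out in turn, the lowest Tsc22d3 estimate was -0.04 in marrow, -0.05 in spleen, -0.08 in gonadal fat, -0.12 in heart and -0.13 in lung. It stayed above 0 in the other tissues.

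**Figure D2:**
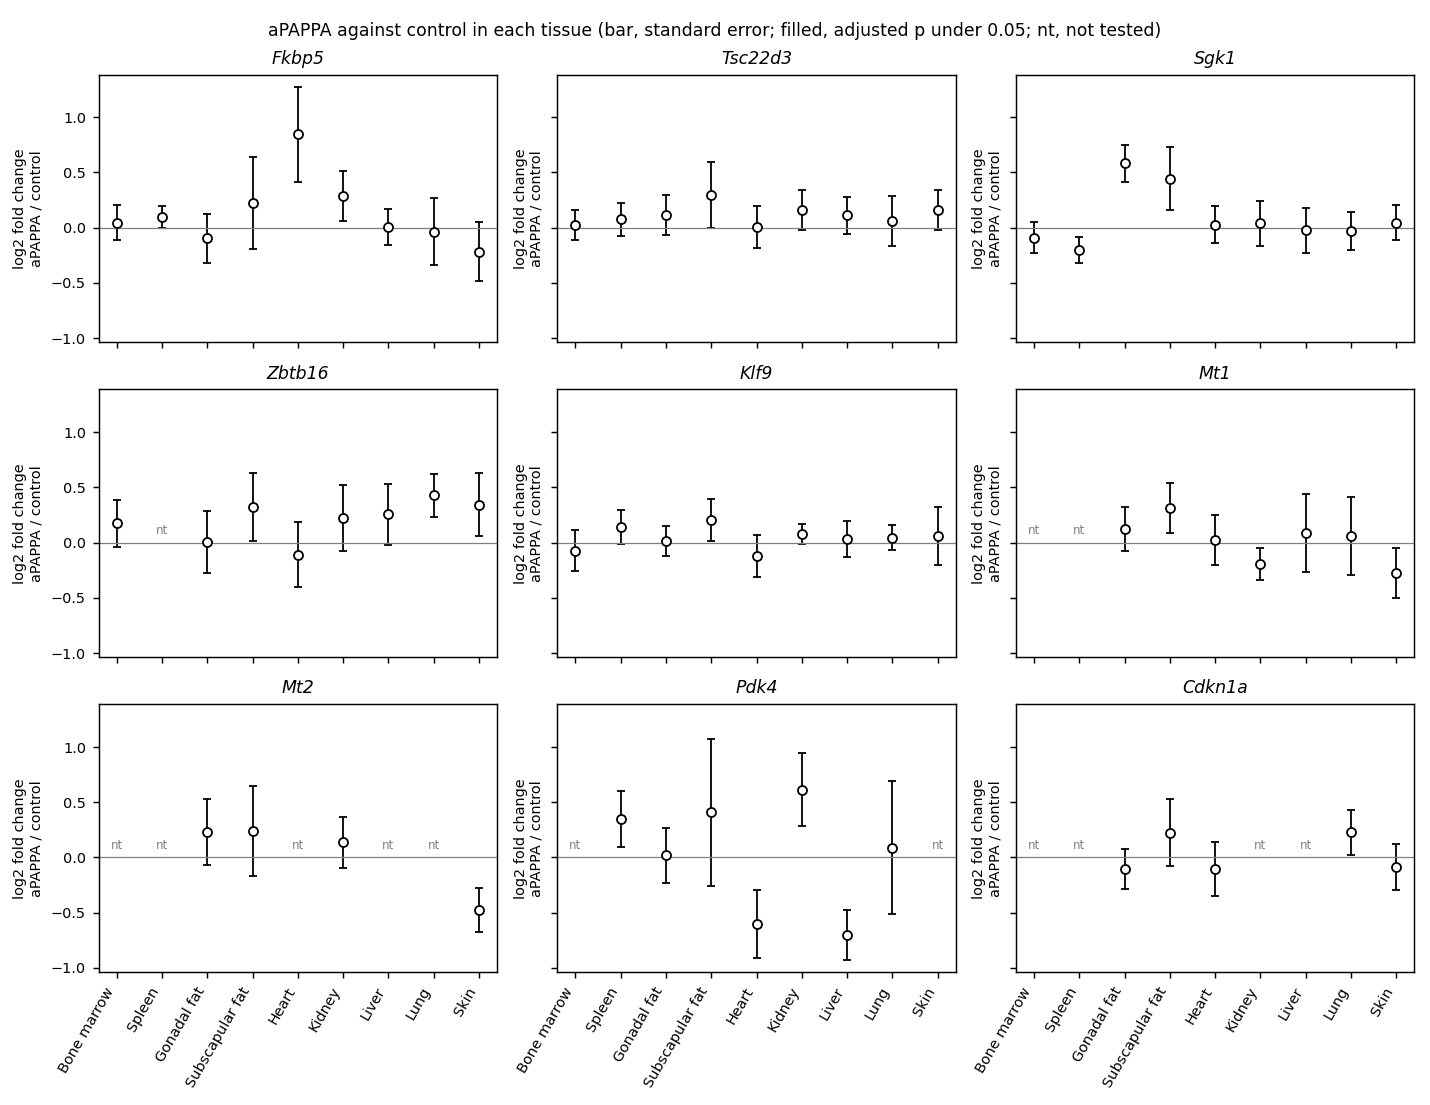
Log2 fold change of aPAPPA over control mice with its standard error for each gene and tissue, from edgeR with sex as covariate. No point is filled, since none of 67 had an adjusted p under 0.05, and the Fkbp5 estimate in heart stands on the library of mouse 56.

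Over the tissues, each mouse's mean log2 CPM was compared between the arms with limma. The genes passing in all tissues had log2 fold changes of 0.12 ± 0.12 (Tsc22d3), 0.11 ± 0.07 (Sgk1), 0.07 ± 0.08 (Klf9) and 0.05 ± 0.14 (Fkbp5). None of the 4 passed, with a smallest adjusted p of 0.888, and 0% of 6449 genes passed (165 at an unadjusted p under 0.05). Differences of the arm effect between tissues were not called for these 4 genes (limma-voom F-test, adjusted p = 0.752 for Sgk1 and at least 0.941 for the others), with 0% of 6449 genes called and 429 at an unadjusted p under 0.05. The sex by arm term was called for 0 of 67 pairs by edgeR, against 0.000978% of all pairs, with 5 pairs at an unadjusted p under 0.05 against 3.94% of all pairs. The lowest adjusted p was that of Pdk4 in lung, 0.59, with a term of -2.93 ± 1.02. There aPAPPA males had 10.1, 10.7 and 15.7 CPM, control males 5.39, 13.0 and 99.9 CPM, aPAPPA females 1.28, 24.0 and 105 CPM and control females 5.36, 13.1 and 25.0 CPM. The highest values came from a control male and an aPAPPA female, and the groups overlapped. The control male's 99.9 CPM is the lung of mouse 68, in doubt, and without that library the term was -2.22 (adjusted p = 0.571, edgeR) and the next control male was at 55.8 CPM.

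The receptor and its partners also had no call. Of 15 genes of the receptor complex and of hormone activation, 120 pairs were tested and 0 were called for the arm. Over the tissues, the estimates were -0.09 ± 0.06 for Nr3c1, 0.09 ± 0.06 for Ptges3 (the p23 co-chaperone), -0.08 ± 0.07 for the coactivator Ncoa2 and -0.07 ± 0.06 for Fkbp4, the co-chaperone that competes with Fkbp5 (limma, adjusted p = 0.888 for each). Of 30 other glucocorticoid-induced genes, 176 pairs were tested and 0 called. The clock gene Per1 had the smallest p of that list, with an estimate of 0.25 ± 0.13 over the tissues (limma, adjusted p = 0.888). The lists of clock genes (131 pairs), p53 targets (99), PPAR and fasting genes (122) and zinc and MTF1 genes (57), acute phase genes (37) and immediate early genes (62) also had 0 calls.

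Sex set these genes apart in 17 of 67 pairs, 7 higher and 10 lower in males, and 7 of the 9 genes had at least 1 such pair. Over all genes and tissues 9.53% of pairs were called (4.93% higher and 4.6% lower), and in kidney and liver, which hold 10 of the 17, 26.1% and 28.4% of all genes were. The remaining calls lay in gonadal fat (15.1% of all genes called), subscapular fat (15.5%) and spleen (4.53%). No pair was called in marrow, heart, lung or skin, where 0.721%, 0.187%, 0.14% and 0.313% of all genes were. Tsc22d3 and Cdkn1a had no called pair. Samples were 11 males and 11 females per tissue, and the effects come from edgeR's quasi-likelihood fit with the arm as covariate.

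In liver the sexes did not overlap for Zbtb16 and Fkbp5. Zbtb16 in liver was at 5.74, 17.2 and 26.1 CPM in males and 32.2, 49.4 and 157 CPM in females. Every male lay below every female, and the log2 fold change was -1.88 ± 0.27 (SE, edgeR, adjusted p = 1.59e-05). Fkbp5 in liver was at 17.0, 40.2 and 43.5 CPM in males and 44.0, 73.1 and 99.9 CPM in females. Here too every male lay below every female, with a log2 fold change of -1.01 ± 0.16 (adjusted p = 5.75e-05, edgeR). Pdk4 (-0.85 ± 0.22) and Mt1 (-1.02 ± 0.35) were also lower in male liver, and Klf9 was higher (0.49 ± 0.16). Klf9 levels were 83.6, 125 and 173 CPM in males and 53.1, 93.7 and 145 CPM in females, with overlap. Sums of 8 hepatocyte markers had medians of 119600 CPM in male and 121900 CPM in female livers, and sums of 7 erythroid markers 1158 and 674 CPM.

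Fkbp5 turned round between liver and kidney. In kidney it was at 30.2, 62.4 and 96.1 CPM in males and 16.6, 28.8 and 64.2 CPM in females, with a log2 fold change of 0.92 ± 0.23 (edgeR, adjusted p = 0.00358). In spleen it was lower in males (28.0, 32.4 and 37.4 CPM in males, 33.7, 42.3 and 65.1 CPM in females, -0.40 ± 0.10, adjusted p = 0.019, edgeR). That call was lost with no filter on low counts (adjusted p = 0.0801, edgeR). The difference of the sex effect between tissues was not tested. The other 4 kidney calls were lower in males, Zbtb16 at -0.96 ± 0.30, Sgk1 at -0.91 ± 0.20, Mt2 at -0.78 ± 0.23 and Mt1 at -0.66 ± 0.15. Sgk1, which acts in sodium uptake of the kidney tubule, had 32.7, 54.8 and 86.9 CPM in male kidney and 44.8, 88.5 and 197 CPM in female kidney, with overlap. Sums of 8 kidney tubule markers had medians of 30550 CPM in males and 24890 CPM in females. Adrenal cortex markers, whose tissue lies beside the kidney, summed to 3.16 to 18.5 CPM in males and 6.48 to 14.6 CPM in females, with 3 of 7 markers at 0.

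In the fat depots the metallothioneins were higher in males. Mt1 had 54.5, 105 and 180 CPM in male gonadal fat and 32.8, 45.3 and 102 CPM in female gonadal fat (1.01 ± 0.20, adjusted p = 0.00193, edgeR). In subscapular fat it had 37.4, 71.2 and 143 CPM in males and 13.4, 28.1 and 53.9 CPM in females (1.24 ± 0.23, adjusted p = 0.00272, edgeR). Mt2 had the same direction, by 1.31 ± 0.30 in gonadal and 1.71 ± 0.42 in subscapular fat, so that both genes were higher in male fat and lower in male kidney. Sgk1 was higher in male gonadal fat by 0.65 ± 0.17 and Zbtb16 lower by 0.85 on the log2 scale (-0.85 ± 0.28, adjusted p = 0.0412, edgeR). The Zbtb16 call was lost without the gonadal fat library in doubt (-0.76, adjusted p = 0.0533, edgeR). Macrophage markers in gonadal fat summed to a median of 4050 CPM in males and 2284 CPM in females, and adipocyte markers to 9454 and 13230 CPM, and in subscapular fat skeletal muscle markers summed to a median of 3731 CPM in males and 18260 CPM in females. The part of any of these in the differences was not tested. In heart, Zbtb16 had an estimate of -1.31 ± 0.30 that did not pass (adjusted p = 0.087, edgeR), though it did with DESeq2 (adjusted p = 0.0057) and without the libraries in doubt (-1.28, adjusted p = 0.0258, edgeR).

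**Figure D3:**
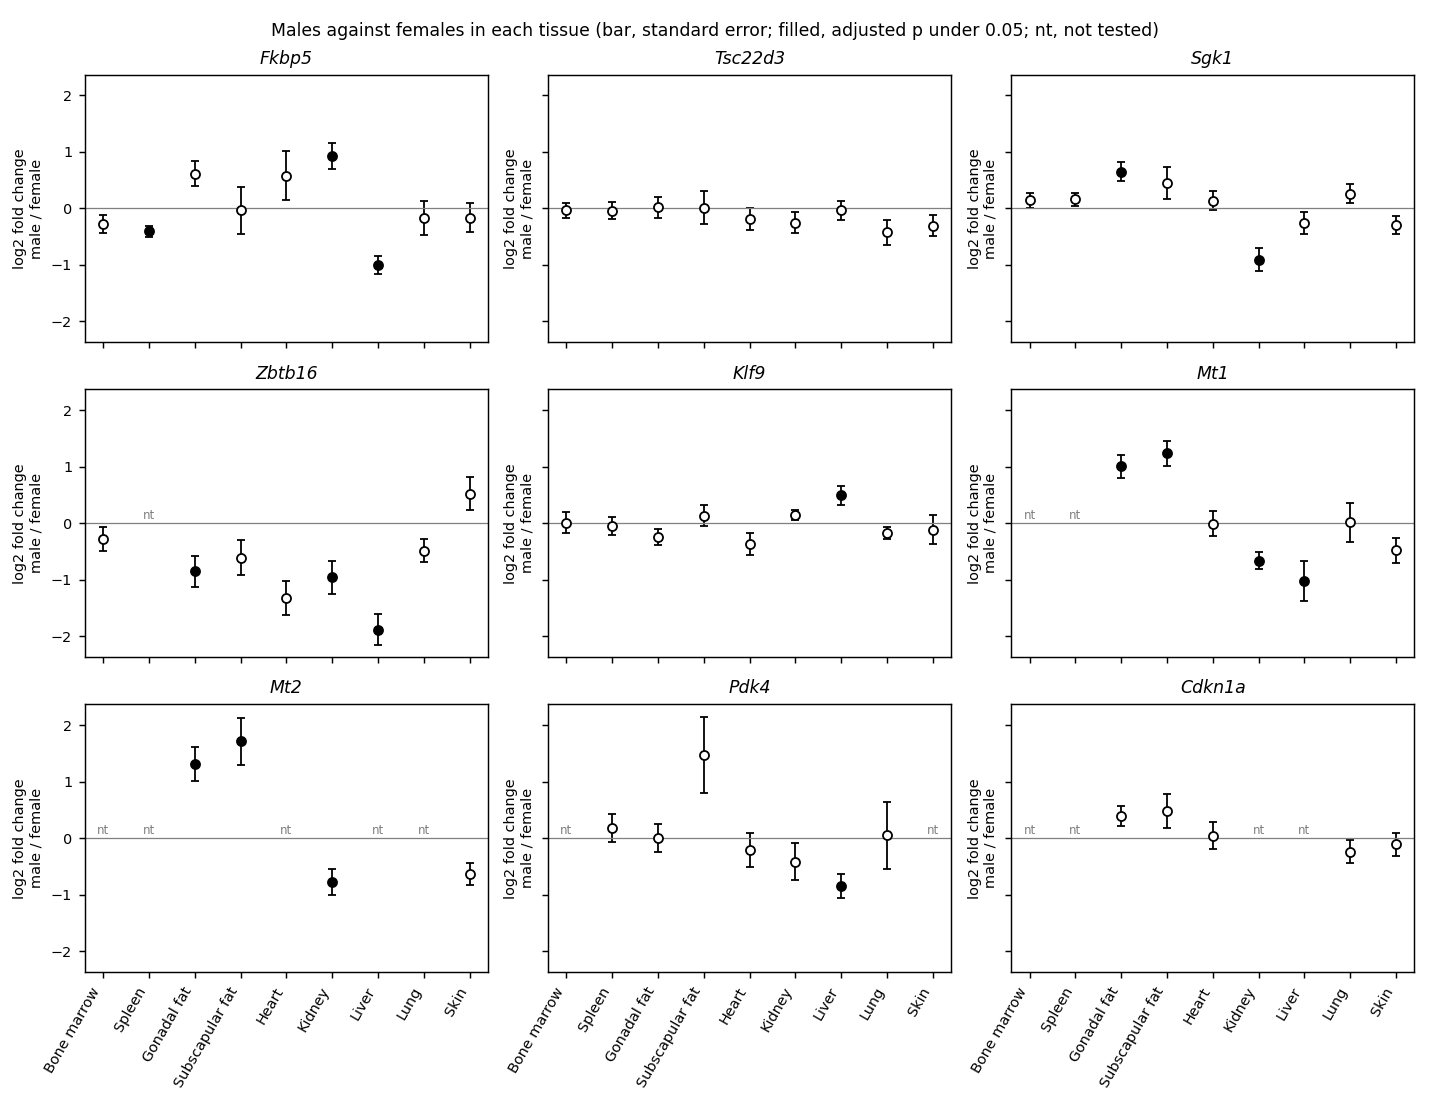
Log2 fold change of males over females with its standard error for each gene and tissue, from edgeR with the arm as covariate, filled where the adjusted p was under 0.05. Of 67 points 17 are filled, in liver, kidney, gonadal fat, subscapular fat and spleen, and Fkbp5 lies above 0 in kidney and below it in liver.

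The shares of the other lists called for sex stand beside 9.53% of all pairs, and their differences from it were not tested. Of 176 pairs of other glucocorticoid-induced genes 11 were higher and 14 lower in males (14.2% called). The receptor list had 6 higher and 6 lower of 120 (10%), 8 of them in kidney, and the p53 list 7 higher and 1 lower of 99 (8.08%). Zinc and MTF1 genes had 4 higher and 3 lower of 57 (12.3%). PPAR and fasting genes had 19 higher and 9 lower of 122 (23%), and clock genes 4 higher and 20 lower of 131 (18.3%), with 8 of the lower ones in gonadal fat. Acute phase genes had 14 higher and 0 lower of 37 (37.8%), and immediate early genes 5 higher and 2 lower of 62 (11.3%).

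Tsc22d3 and Fkbp5 also agreed between the tissues of 1 mouse. For each gene the deviation of a library from the mean of its tissue, sex and arm was taken, and a limma F-test asked whether the libraries of a mouse deviate together. The intraclass correlation, the share of variance that lies between mice, was 0.309 for Tsc22d3 (adjusted p = 1.1e-05) and 0.237 for Fkbp5 (adjusted p = 0.00112). It was 0.129 for Klf9 (adjusted p = 0.237) and 0.0293 for Sgk1 (adjusted p = 0.741). Over the 6449 genes that passed in all tissues the median was 0.00562, and 0.372% of them (24 genes) were called. By p-value Tsc22d3 stood at place 4 and Fkbp5 at place 10. Among the called genes outside the list, picked here after their values were seen, were the clock genes Nr1d2 (0.323), Per2 (0.2) and Arntl (0.183) and the glucocorticoid-induced Txnip (0.216), an inhibitor of thioredoxin. Picked in the same way, Erdr1 (0.784) and Mid1 (0.383) stood at places 1 and 2 and Ide (0.285) at place 6. Of 10 clock genes tested 3 were called, with a median of 0.127, and of 9 other glucocorticoid-induced genes 1, with a median of 0.0101. Of 9 receptor genes 0 were called, and Nr3c1 itself had -0.00917.

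**Figure D4:**
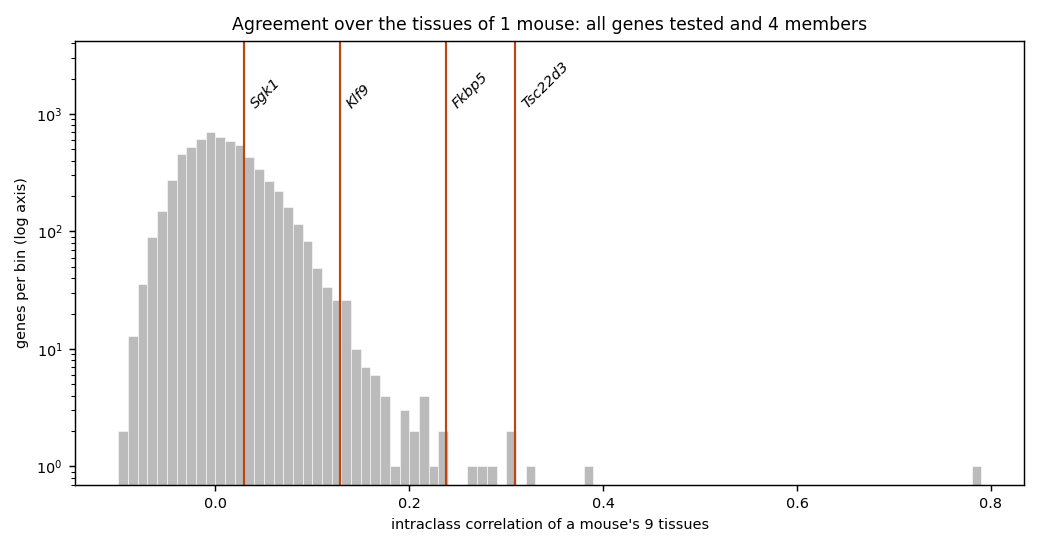
Number of genes per bin of the intraclass correlation over the 9 tissues of a mouse (log axis) for the 6449 genes tested, with lines at the 4 genes of the list that passed in all tissues. Tsc22d3 at 0.309 and Fkbp5 at 0.237 lie at the far right of the distribution, and Sgk1 at 0.0293 lies within its bulk.

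When genes passing in at least 5 tissues were taken, with each gene's own tissues, 8 of the list could be tested and 4 were called (0.295% of 10850 genes). Zbtb16 had an intraclass correlation of 0.302 over 8 tissues (adjusted p = 0.000134) and Pdk4 0.241 over 7 (adjusted p = 0.0143). Mt1 (0.0138) and Cdkn1a (0.0132) were not called. Mt2, which passed in 4 tissues, had 0.105 in a fit over such genes and was not called (adjusted p = 0.678, with 0.279% of 11824 genes called).

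The highest and lowest mice were mostly female. Over all libraries control female 18 had the highest mean deviation of the 22 mice, 1.03 for Fkbp5 (above 0 in 9 of 9 tissues), 0.64 for Tsc22d3 (8 of 9) and 0.92 for Zbtb16 (8 of 8). Its Fkbp5 level was 75.2 CPM in marrow against 25.6 to 46.2 CPM in the other 5 control females, 42.8 CPM in heart against 5.93 to 18.8 CPM and 41.1 CPM in lung against 6.68 to 13.9 CPM. It lay above all other control females in 6 of 9 tissues, and not in spleen, liver or skin. Tsc22d3 in mouse 18 was at 365 CPM in lung against 83.1 to 168 CPM in the others, at 177 CPM in heart against 37 to 95.9 CPM (from 66.6 CPM without mouse 22, whose heart library is in doubt), and above all of them in 7 of 9 tissues. In marrow it was at 70.4 CPM and below all of them.

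In aPAPPA female 36 the mean deviation was 0.62 for Tsc22d3 (8 of 9 tissues above 0), 0.41 for Fkbp5 (8 of 9) and 0.85 for Zbtb16 (8 of 8). Its Fkbp5 value of 0 counts in skin is that of the library in doubt, and without that library the means were 0.76 for Fkbp5, 0.74 for Tsc22d3 and 0.93 for Zbtb16, the last pair above those of mouse 18. Tsc22d3 in mouse 36 was at 329 CPM in lung against 87.3 to 155 CPM in the other 4 aPAPPA females, and at 227 CPM in gonadal fat against 64.3 to 118.5 CPM. At the low end, aPAPPA female 6 was below 0 in 9 of 9 tissues for both genes, with means of -0.52 for Fkbp5 and -0.36 for Tsc22d3. Control female 22 had -0.39 for Fkbp5 and -0.42 for Tsc22d3, or -0.38 and -0.33 without its heart library, in doubt. Mean depth outside the abundant features deviated by -0.50, -0.30, -0.46 and 0.36 on the log2 scale in mice 36, 18, 22 and 6, and the part of depth in these deviations was not tested.

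**Figure D5:**
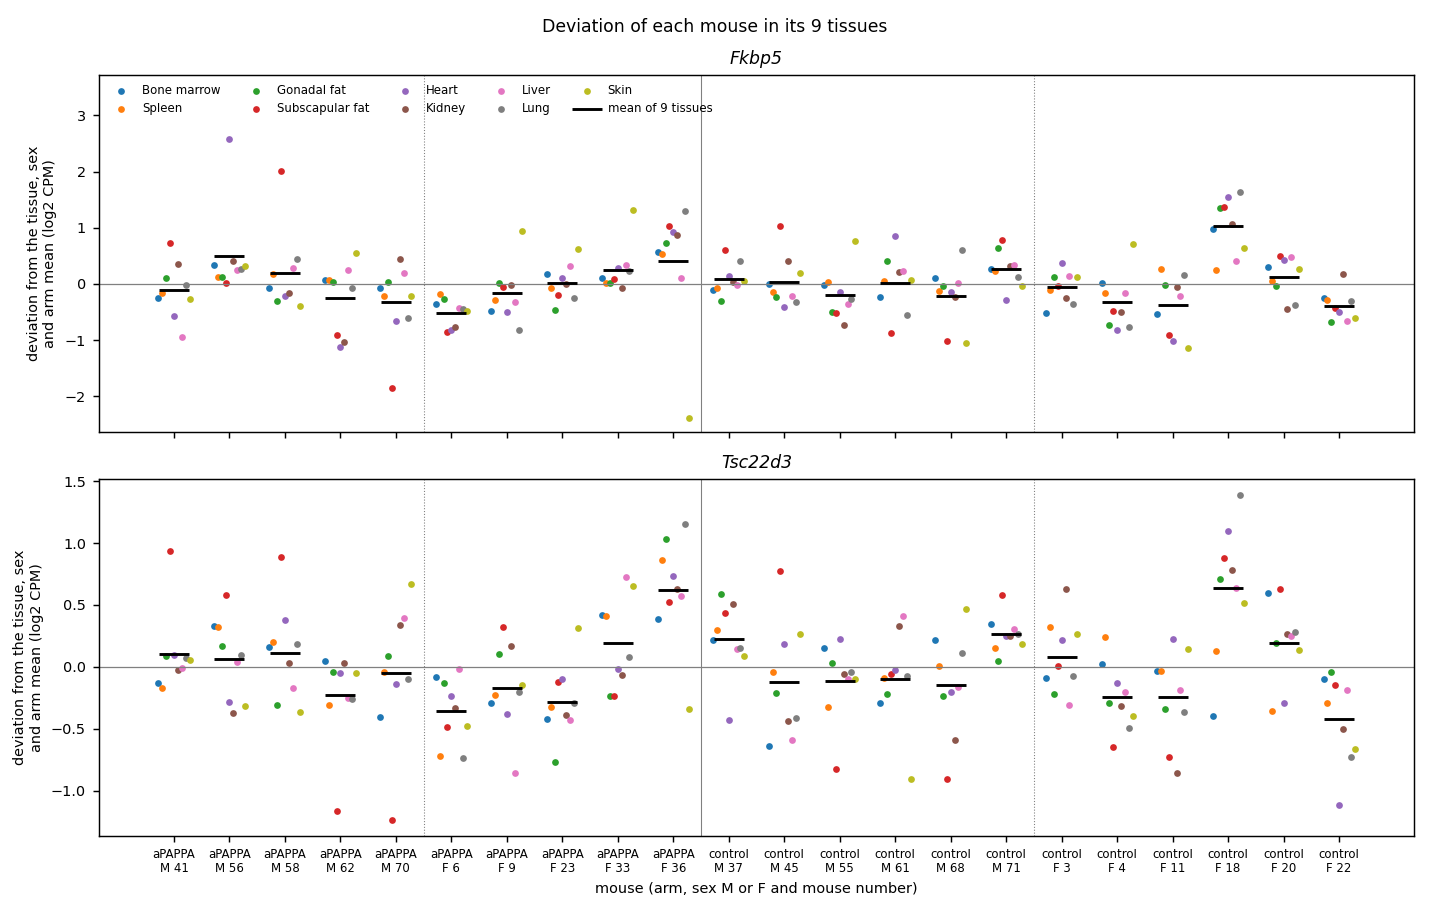
Deviation of each library from the mean of its tissue, sex and arm (log2 CPM) for Fkbp5 and Tsc22d3, with a colour for each tissue and a bar at the mouse's mean, aPAPPA mice to the left of control mice. Control female 18 and aPAPPA female 36 stand above 0 in nearly every tissue and aPAPPA female 6 below it, and the Fkbp5 values of 2.58 in the heart of mouse 56 and -2.39 in the skin of mouse 36 come from libraries in doubt.

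The Fkbp5 call was lost without mouse 18, where the correlation was 0.106 (limma, adjusted p = 0.458), while Tsc22d3 stayed called (0.25, adjusted p = 0.00206). The fits that left out mice kept the libraries in doubt of the remaining mice. Mouse 18 was not left out together with those libraries, so how far the Fkbp5 call depends on that mouse alone was not tested. Without mice 18 and 36 neither was called, at 0.131 for Fkbp5 (adjusted p = 0.178) and 0.151 for Tsc22d3 (adjusted p = 0.118). The Zbtb16 and Pdk4 calls were lost without mouse 18 (0.208, adjusted p = 0.0507, and 0.222, adjusted p = 0.0646), and that of Pdk4 also without mouse 6 (0.182, adjusted p = 0.172). The Fkbp5 call was also lost without heart (0.196, adjusted p = 0.0549). Without the libraries in doubt both were called, at 0.38 for Fkbp5 (adjusted p = 1.95e-08) and 0.345 for Tsc22d3 (adjusted p = 4.42e-07). In females alone they were 0.372 and 0.466, both called, and in males alone 0.0674 and 0.0543, neither called. In aPAPPA mice alone they were 0.117 and 0.29 (not called), and in control mice alone 0.392 and 0.326 (called). These fits by sex or arm kept the libraries in doubt. For Fkbp5 those include deviations of 2.58 in the heart of aPAPPA male 56 and -2.39 in the skin of aPAPPA female 36. The difference between the sexes or the arms was not tested.

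Likeness between genes was the correlation of these deviations within a tissue, averaged over the tissues where both genes passed, and is given as a description over shared libraries with no test. Tsc22d3 was most like Zbtb16 (0.51 over 8 tissues), Errfi1 (0.50), an inhibitor of the EGF receptor, and Fkbp5 (0.48 over 9 tissues). Fkbp5 was most like Evc2 (0.49), Tsc22d3 (0.48) and Disp1 (0.45), out of 10849 genes. Per1 was at place 5 of its order (0.43) and Sgk1 at place 4344 (0.09). Zbtb16 was most like Klf15 (0.57), a glucocorticoid-induced regulator of amino acid use, Angptl4 (0.53), an inhibitor of lipoprotein lipase, and the kinase gene Pim3 (0.52), with Tsc22d3 at place 4 and Klf9 at place 7. Klf9 was also most like Klf15 (0.52), before the clone-named gene RP23-128C4.4 (0.49) and Cystm1 (0.48).

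The other genes had their own companions. Sgk1 was most like Mfap3l (0.53), Cxcl14 (0.49) and Gyg (0.49), and Tsc22d3 was at place 1089 of its order (0.22). Mt1 was most like Atp6v1e1 (0.59), Hsdl2 (0.58) and Dynlrb1 (0.58), and Pdk4 like the mitochondrial genes Ghitm (0.59), Uqcr10 (0.52) and Acadm (0.51), the last an enzyme of fatty acid oxidation. Cdkn1a was most like Pgd (0.56), Gnb1 (0.54) and Rab7 (0.52) over 5 tissues, with values of 0.14 for Fkbp5 and -0.05 for Tsc22d3. Mt2 passed in too few tissues to be ordered.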

How the data were processed

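RNA of whole tissue was made into stranded total RNA libraries and sequenced on an Illumina HiSeq, per the labels' protocols. The deposited table holds whole-number counts per gene. FastQC 0.11.5, Salmon and the mm10 build are named in the submitters' processing notes, and how Salmon's estimates became whole-number counts is not given in the sources used here. Each library was matched to a sample by its name, and 0 columns were left out.

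Genes were filtered within each tissue by edgeR's filterByExpr, and TMM factors were computed per tissue. For levels, the tissues were put on 1 scale by TMM over all libraries. The arm (with sex as covariate), sex (with the arm) and their product were tested per tissue with edgeR 4.0.16 (quasi-likelihood), run in R 4.3.3. Means over tissues and the mouse term used limma 3.58.1 on log2 CPM with a prior count of 2, the arm by tissue term used limma-voom with quality weights and the mouse as block, and DESeq2 1.42.0 was an alternative. Adjusted p-values are Benjamini-Hochberg over all genes of a tissue, and calls lie under 0.05. On simulated data the arm by tissue test called too many genes where the spread differed between tissues, and it called 0 here. Tests used 1 library per mouse and tissue. The tissue contrasts used edgeR on the control mice with sex as covariate and without the mouse as block. In these contrasts, filterByExpr and TMM ran over the control libraries of all tissues.

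The genes, the lists and the tests were chosen with earlier results of these data known. Genes named beyond the 9 were at most 4 of a list by smallest p over the tissues, the 3 most like each gene, and those said to be picked after their values were seen.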

Additional observations from a re-analysis of the deposited data

Results flagged for a closer look

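In 16 of 67 groups of 10 aPAPPA libraries, 1 library stood far from the other 9, by a gap to the nearest library larger than 0.466 of the group's range. Chance marks about 1 group in 20, and the groups share libraries. Control groups of 12 were not examined in this way. Values are log2 CPM.

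The heart library of mouse 56, in doubt, was high for Fkbp5 (7.2627) and low for Sgk1 (4.8523), Klf9 (4.8971), Mt1 (4.3283) and Pdk4 (6.3464). The skin library of mouse 36, in doubt, was at 0 counts for Fkbp5, Mt1, Mt2 and Cdkn1a (1.1557 for each) and high for Klf9 (8.5147, from 8 counts).

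In libraries that are not in doubt, mouse 36 was high for Fkbp5 in lung (5.282) and for Tsc22d3 in gonadal fat (7.8361), heart (7.381) and lung (8.3656). Mouse 41 was low for Fkbp5 in liver (4.3075, from 11 counts), and mouse 33 was high for Pdk4 in kidney (6.8293, from 52 counts).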

How the results depend on the processing

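No arm effect on the 9 genes, over tissues or within 1, and no sex by arm or arm by tissue term was called under any alternative run. Calls ranged from 15 to 18 for sex and from 61 to 63 for tissue contrasts. Of the genes tested in all tissues, 2 were called for the mouse term. That count was 1 without heart, 4 over genes passing in at least 5 or at least 4 tissues, 1 to 2 with each mouse left out in turn, and 0 without mice 18 and 36, in aPAPPA mice alone or in males alone. The 4 calls among genes passing in at least 5 tissues became 1 to 4 with each mouse left out in turn, and 0 without mice 18 and 36, in aPAPPA mice alone or in males alone. These settings, other than without heart and the 5 tissue rule, were added after the data were seen. Neighbouring tissues differed in 17 of 72 pairs. Without TMM 27 differed, of which 14 were among the 17, 9 were added and 4 ran the other way, and 3 were lost (both Zbtb16 pairs and Pdk4 in liver over kidney, adjusted p = 0.259, exact). The 4 were Mt1 in heart over gonadal fat (-0.547), Tsc22d3 in heart over spleen (-0.7517) and Klf9 in liver over subscapular fat (-0.4475) and in subscapular fat over lung (-0.29). In aPAPPA mice 23 differed, 12 of them among the 17 and 1 the other way round (Cdkn1a in marrow over spleen, -0.4931). The 5 lost there were Cdkn1a in skin over gonadal fat (adjusted p = 0.0804), Tsc22d3 in spleen over skin (0.0506), Klf9 in gonadal fat over skin (0.518), Mt2 in skin over gonadal fat and Pdk4 in liver over kidney (exact tests). All of them but the Pdk4 pair include the skin library of mouse 36, in doubt. It had 0 counts for Cdkn1a and Mt2 and 8 for Klf9, and these tests were not run without it. Unpaired, without the replicate block, 22 differed, the 17 among them. The spans and the highest and lowest tissues without TMM or without 1 library were computed after the data were seen. The causes were not tested.

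Of the 72 neighbouring pairs, called or not, 14 turned sign by over 1 SE without TMM and 14 in aPAPPA mice. Outside these pairs, signs turned for the following values, none of them called in the setting where it turned (an uncalled value counts here only where it moved by over 1 SE). Without the libraries in doubt the sex effect was 0.2268 for Pdk4 and -0.1652 for Fkbp5 in heart and -0.388 for Mt1 in lung, and the sex by arm term was -0.4407 for Fkbp5 in heart. With each mouse left out, the arm effect ran from -0.6594 to 0.5133 for Pdk4 in lung, -0.0765 to 0.1922 for Tsc22d3 in gonadal fat, -0.1041 to 0.3549 for Zbtb16 in kidney and -0.2912 to 0.2343 for Mt1 in liver. In aPAPPA in place of control mice, tissue contrasts were -0.0544 and 0.0962 for Fkbp5 in gonadal fat and heart, and 0.5815, -0.1472 and 8e-04 for Pdk4 in kidney, liver and lung. The neighbouring pairs Pdk4 in liver over kidney (-0.5635) and Mt2 in skin over gonadal fat (-0.0097) were among the 14 in aPAPPA mice. The Mt2 value includes the skin library of mouse 36, in doubt, at 0 counts.

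No paired analysis of the arms was possible because they share no mouse. With the mouse as a replicate block in the tissue contrasts, Fkbp5 (0.3351, adjusted p = 0.04305, edgeR) and Tsc22d3 (0.2871, adjusted p = 0.02168, edgeR) became called in bone marrow. Without the replicate block the arm by tissue term stayed at 0 calls. Depth limits low genes most, and some libraries gave single-digit counts for Fkbp5, Sgk1, Zbtb16, Klf9, Mt1, Mt2, Pdk4 and Cdkn1a.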
